A study of Mus musculus with 60 samples.

Results

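Valemetostat was compared with its solvent DMSO in CH12F3 cells with intact AID and without idelalisib, using the positions and strands of translocation junctions. The comparison rests on 8 valemetostat libraries and 5 DMSO libraries, 13 of the 60 libraries of the series, which were taken by their sample titles and not by any measured value. CH12F3 is a single mouse lymphoma line of B-cell origin that can be made to switch from IgM to IgA in culture. All 13 libraries carry the genotype label AID_WT. All cells received the same 72 h stimulus, made up of IL-4, TGF-β and an antibody to CD40 (anti-CD40). The treated cells also received valemetostat, a small-molecule inhibitor of the histone methyltransferases EZH1 and EZH2, and the control cells received DMSO. The labels state neither the dose nor the length of exposure to the compound, and the lists hold no measure of histone methylation against which the treatment label could be checked.

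In LAM-HTGTS, a translocation sequencing method that starts from linear amplification, a fixed broken DNA end, the bait, is used to capture the places in the genome to which it has been joined. During class switching the enzyme AID deaminates cytosines in the switch regions of the immunoglobulin heavy chain locus (Igh), which lie upstream of the constant genes mu, gamma3, gamma1, gamma2b and alpha, and breaks made there can be joined to the bait. AID also acts more rarely at other transcribed genes, called off-targets, and bait ends are often rejoined close to their own break.

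A limit stands before every result. Read names place all 5 DMSO libraries in sequencing run 1 and all 8 valemetostat libraries in run 2, so run and treatment cannot be told apart. For orientation, values are given beside the main comparison from 5 libraries of WT cells treated with valemetostat plus the PI3Kδ inhibitor idelalisib, which shared run 2, and from 5 WT libraries treated with tazemetostat, another EZH2 inhibitor, which shared run 1. Also used were 5 DMSO libraries of cells without AID (AID-KO) and 5 DMSO libraries of WT cells with idelalisib. Those 2 groups lay in neither run 1 nor run 2, so their values differ from the others by run as well. Whether replicates were grown as separate cultures is not stated, so the spread that the p-values are set against may be technical. DMSO libraries held 9946 to 11953 junctions (52349 in all) and valemetostat libraries 7419 to 14805 (79126 in all). DMSO replicates 1 and 2 shared 273 genome-wide junctions at the same position and strand, 4.46% of the smaller list, against a median of 0.794% over the 10 DMSO pairs. They were kept apart, and calls that ended when they were counted as 1 sample are named. Positions that recurred in 10 or more libraries of the series took 0.903 to 1.11% of genome-wide junctions with valemetostat and 0.539 to 0.869% with DMSO, and the part of this in the results below is covered by a setting without those positions. The bait site was placed on chromosome 15 at 61818900 (mm9), in the densest 200 bp of the AID-KO DMSO libraries, and the bait window reaches 1 Mb to either side. Genome-wide junctions are those off chromosome 15 and outside the immunoglobulin loci.

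Junctions in Igh were fewer with valemetostat. In the 5 DMSO libraries Igh held 3.39, 3.63, 3.64, 3.31 and 3.26% of all junctions. In the 8 valemetostat libraries the lowest share was 1.09%, the median 1.32% and the highest 1.68%. Every valemetostat library lay below every DMSO library, and the count behind these shares was 1068 Igh junctions with valemetostat and 1800 with DMSO. The mean share fell from 3.44% ± 0.178 (SD, n = 5) to 1.36% ± 0.213 (n = 8), a difference of -2.08 percentage points (95% interval -2.34 to -1.83 from the permutation test, two-sided exact permutation test over 1287 splits, p = 0.000777, the smallest the design allows, adjusted p = 0.00389). Within run 2 the cells that also received idelalisib had an Igh share of 3.78% ± 0.189 (n = 5), 2.41 points above the WT valemetostat libraries (exact permutation test, p = 0.000777, adjusted p = 0.00466 over 18 measures compared within the run), although these groups differ by idelalisib. Run 2 held no WT DMSO library, so whether the run played a part in the Igh share was not tested. WT tazemetostat stood at 2.73% ± 0.298 (n = 5).

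The share was lower at both ends of the switch reaction. The mu part, the donor switch region (chromosome 12, 114650000 to 114679999, mm9), held 1.61% ± 0.117 of all junctions with DMSO and 0.650% ± 0.0877 with valemetostat, 0.405 times the DMSO level. The alpha part (114490000 to 114509999), the acceptor that TGF-β directs in this line, held 1.37% ± 0.0862 and 0.520% ± 0.0753, or 0.380 times. For both parts the highest valemetostat library (0.759 and 0.634%) lay below the lowest DMSO library (1.48 and 1.28%). In the densest 1 kb of the mu part, which starts at 114663000, the pooled libraries held 59.0 minus-strand and 36.9 plus-strand junctions per 10000 with DMSO, and 19.3 and 21.1 with valemetostat.

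**Figure D1:**
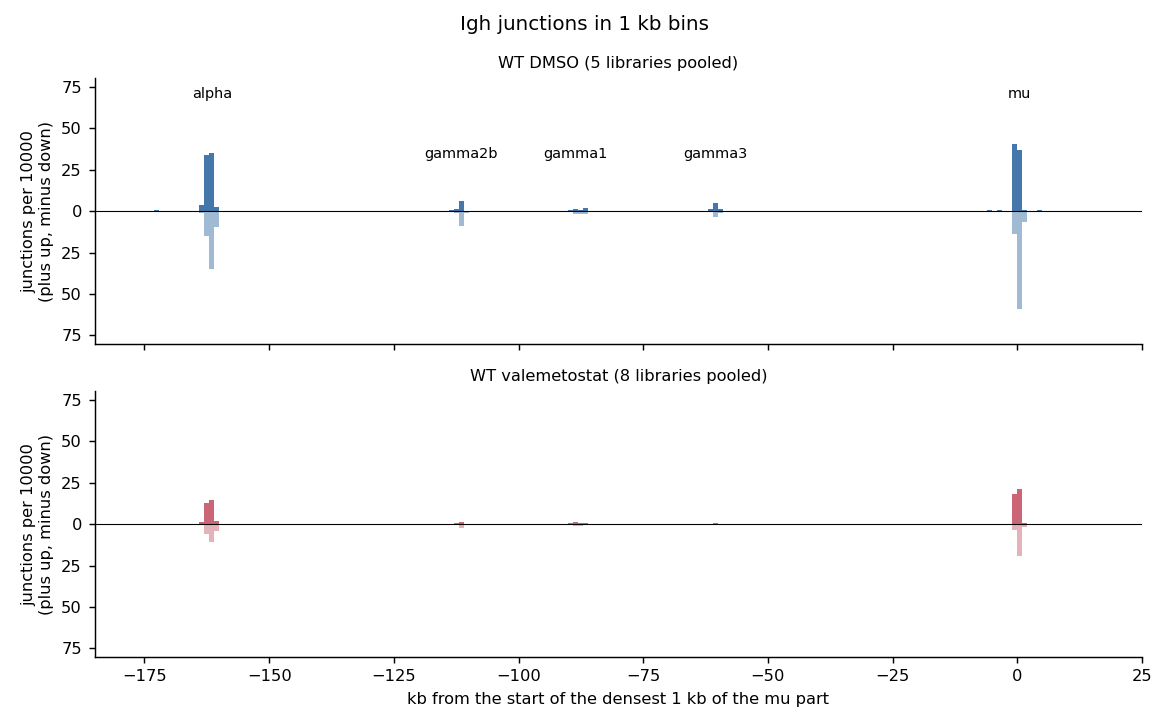
The vertical axes give pooled junctions per 10000 junctions of the group in 1 kb bins, plus strand upwards and minus strand downwards, and the horizontal axis gives the distance in kb from the densest 1 kb of the mu part. The peaks at mu and alpha are lower in the 8 pooled valemetostat libraries than in the 5 pooled DMSO libraries, and between them stand the small gamma3, gamma1 and gamma2b peaks, 61, 89 and 112 kb from mu.

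As percents of the Igh junctions themselves, mu and alpha kept similar places. The mu part took 47.9% ± 2.96 with valemetostat and 46.6% ± 2.02 with DMSO (difference 1.29 points, interval -2.05 to 4.75), and the alpha part 38.3% ± 2.75 and 39.8% ± 1.91 (difference -1.49 points, interval -4.65 to 1.65). Of the 6 parts tested, 1 passed (16.7%), the gamma2b part. With DMSO it held 5.04, 6.04, 4.92, 7.07 and 7.12% of Igh junctions, and with valemetostat a lowest value of 2.48%, a median of 3.62% and a highest of 5.88%, so the groups overlap. Its mean fell from 6.04% ± 1.06 (n = 5) to 3.91% ± 1.05 (n = 8), a difference of -2.13 points (exact permutation test, adjusted p = 0.0373) that rests on 109 and 41 junctions. The call ended without DMSO replicate 2, 4 or 5 (-2.13, -1.88 and -1.86 points), without valemetostat replicate 3, 4, 5, 6 or 8 (-2.05, -2.11, -1.93, -2.08 and -2.05), after thinning to equal depth (-2.74), on a logit scale, and with DMSO replicates 1 and 2 as 1 sample (-2.26). Within run 2 the gamma2b part held 7.43% ± 1.34 of Igh junctions with idelalisib, 3.52 points above WT valemetostat (exact permutation test, adjusted p = 0.00466).

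The other gamma parts were uneven among libraries. The gamma3 part held 3.59% ± 0.744 of Igh junctions with DMSO and 1.92% ± 2.07 with valemetostat (20 junctions, exact permutation test, adjusted p = 0.249). Valemetostat replicate 2 had 6.72% there, and replicate 4 had 0 of 107 Igh junctions, which allows a share of up to 2.80%. Without valemetostat replicate 2 the gamma3 difference passed at -2.36 points (adjusted p = 0.00758), as did a higher share in the Igh rest outside the named parts at 2.31 points (exact permutation test, adjusted p = 0.0177), so that 3 parts passed. The gamma1 part held 3.002% ± 0.744 with DMSO and 5.10% ± 3.08 with valemetostat (exact permutation test, adjusted p = 0.263), with values from 2.52 to 10.96% among the valemetostat libraries. Of all junctions, gamma1 took 0.694 times its DMSO share, gamma2b 0.262 times and gamma3 0.212 times.

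The strand of the Igh junctions also differed. The plus strand took 54.0, 48.4, 51.4, 50.5 and 53.7% of Igh junctions in the DMSO libraries, and with valemetostat 54.6% at the lowest, 57.6% at the median and 64.8% at the highest. The groups do not overlap, although the nearest values lie close together. The mean rose from 51.6% ± 2.35 (n = 5) to 58.8% ± 3.55 (n = 8), by 7.25 points (interval 3.21 to 11.3, exact permutation test, adjusted p = 0.00155). Within run 2 the idelalisib libraries stood at 52.9% ± 1.62, 5.91 points below WT valemetostat (exact permutation test, adjusted p = 0.0163), and WT tazemetostat at 50.3% ± 2.03. What the strand column says about the direction of a joining is not stated.

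By part, a division looked at after the Igh value was seen and therefore described without a test, the shift was larger in mu than in alpha. In the mu part the plus strand took 43.8 to 53.0% of junctions with DMSO and 57.7 to 69.6% with valemetostat. In the alpha part it took 55.1% ± 5.28 and 58.8% ± 4.53. Plus-strand mu junctions went from 79.9 ± 6.95 to 40.5 ± 7.09 per 10000 junctions, 0.508 times, and minus-strand mu junctions from 80.8 ± 9.17 to 24.5 ± 2.97, 0.303 times. In the alpha part the ratios were 0.407 and 0.346. Both strands of both parts were thus lower, the minus strand of mu by most. Among genome-wide junctions the plus strand took 49.7% ± 0.384 with valemetostat and 50.2% ± 0.679 with DMSO (difference -0.445 points, interval -1.06 to 0.222).

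Outside Igh, places that depend on AID were also lower on balance, with fewer junctions behind each. AID-dependent 1 Mb windows were taken from other libraries, as the windows higher in WT plus idelalisib with DMSO than in AID-KO with DMSO. Of 16 such windows among 297, 11 had enough junctions here, and 9 of these 11 had a fitted change below 0 with valemetostat, with a median log2 change of -0.52. Over all 142 windows tested, 79 (55.6%) lay below 0 and the median was -0.04. Without Igh, 8 of the other 10 AID-dependent windows lay below 0, with a median of -0.40. Together those 10 windows held 163 ± 22.2 per 10000 genome-wide junctions with DMSO, from 135 to 192, and 119 ± 25.2 with valemetostat, from 83.5 to 157, so the groups overlap. The other 131 windows held 1236 ± 31.1 and 1213 ± 59.4. In run 2 the idelalisib valemetostat libraries held 214 ± 10.7 in the AID-dependent windows, WT tazemetostat 173 ± 18.7 and AID-KO DMSO 54.9 ± 8.35. After Igh, the windows with the strongest AID dependence were chromosome 12 from 81000000, chromosome 12 from 56000000, chromosome 15 from 74000000 and chromosome 7 from 52000000, with log2 changes here of -0.29, -0.22, -0.52 and -0.90, none of which passed (limma, adjusted p = 0.769, 0.809, 0.234 and 0.132).

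In the fit across all 1 Mb windows 5 of 142 were lower (3.52%) and 2 were higher (1.41%) with valemetostat. The Igh window fell by 1.43 ± 0.12 (SE) on the log2 scale (limma, adjusted p = 9.46e-11). The other 4 that fell began at 79000000 on chromosome 15 (-1.19 ± 0.26, adjusted p = 0.00432), 117000000 on chromosome 11 (-1.24 ± 0.27, adjusted p = 0.00432), 32000000 on chromosome 14 (-1.27 ± 0.29, adjusted p = 0.00512) and 10000000 on chromosome 19 (-1.54 ± 0.46, adjusted p = 0.0443). The first 3 of these kept their call whichever single library was left out. At this size the mean tally reached the minimum of 5 only with DMSO in 28 windows and only with valemetostat in 20, and the called windows on chromosomes 11 and 19 are among the 28. The chromosome 19 call ended without DMSO replicate 1, 2, 4 or 5 (-1.55, -1.36, -1.37 and -1.56) or valemetostat replicate 2, 3, 7 or 8 (-1.56, -1.67, -1.44 and -1.01), by limma trend (-1.78) and quasi-Poisson regression (-1.24), and with DMSO replicates 1 and 2 as 1 sample (-1.43). In the same run the idelalisib libraries held 14.8 ± 4.39 per 10000 genome-wide junctions at the chromosome 15 window and 8.47 ± 3.29 at the chromosome 11 window, against 9.03 ± 3.18 and 6.59 ± 1.74 with valemetostat alone (limma, adjusted p = 0.0971 and 0.882), so neither window set the groups of run 2 apart.

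The windows on chromosomes 14 and 15 were AID-dependent in the other libraries. The chromosome 14 window held 24.5, 19.5, 33.1, 15.7 and 19.04 per 10000 genome-wide junctions with DMSO, and with valemetostat 3.89 at the lowest, 7.40 at the median and 25.3 at the highest. Only valemetostat replicates 7 and 8 reached the DMSO range, and quasi-Poisson regression did not call the window (-1.15, adjusted p = 0.224). Within run 2 it stood 1.64 lower on the log2 scale in WT valemetostat than with idelalisib (limma, adjusted p = 3.43e-05), where it held 27.7 ± 4.32.

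**Figure D2:**
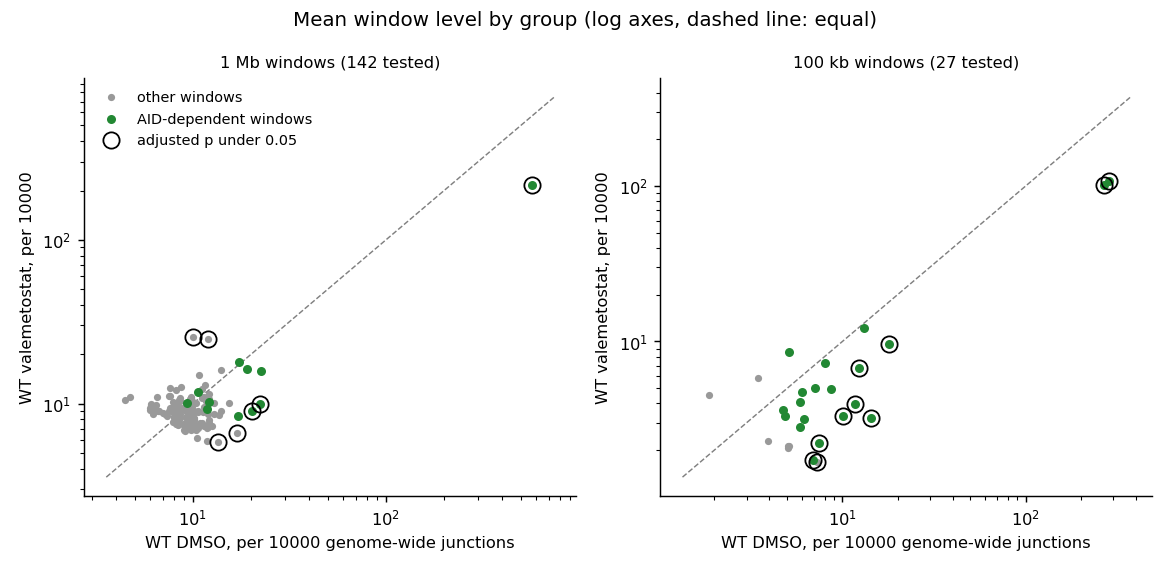
Each point is a window, placed by its mean per 10000 genome-wide junctions in WT DMSO (horizontal, log axis) and WT valemetostat (vertical, log axis), for 142 windows of 1 Mb on the left and 27 of 100 kb on the right. Green points are AID-dependent in other libraries, circles mark an adjusted p under 0.05, and most of the green points lie under the dashed line of equal levels.

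At 100 kb, where only 27 windows held enough junctions, 10 were lower (37.0%) and 0 were higher at the adjusted threshold (limma voom; 15 had an unadjusted p under 0.05, and limma trend and quasi-Poisson regression also called 0 higher, and 1 was called higher without valemetostat replicate 3), and 24 (88.9%) had a fitted change below 0. The minimum tally bears on these counts. In 10 of the 27 windows the mean tally reached the minimum of 2 with DMSO and not with valemetostat, and in 1 the reverse held, so that windows lower with valemetostat were more often let in. Of the 10 called windows, 4 met the minimum only with DMSO, those named below on chromosomes 11, 14, 16 and 18. The filter favoured falls at these 4, so their calls are no separate support for a fall. With the minimum halved, 298 windows were tested, 9 were lower and 0 higher, 7 of the 10 calls remained, and the median log2 change was -0.13 in place of -1.01. Of the 27 windows, 20 were AID-dependent in other libraries, and 9 of these 20 were called lower. The 10 calls include the Igh windows from 114500000 and 114600000 on chromosome 12 (-1.47 ± 0.15 and -1.44 ± 0.14, limma, adjusted p = 1.49e-19 for each). The 17 AID-dependent windows outside Igh, 6 of them called lower, together held 145 ± 14.1 per 10000 genome-wide junctions with DMSO and 86.6 ± 29.6 with valemetostat. The 7 that were not AID-dependent held 31.8 ± 5.51 and 20.6 ± 9.22. Both sums were lower with valemetostat, but both include windows that met the minimum tally only with DMSO. The filter thus favoured a fall in both, and neither sum is separate support for one. Whether the difference is larger for AID-dependent windows was not tested. The largest fall was at chromosome 14, 32400000 to 32499999, by 2.41 ± 0.46 on the log2 scale (limma, adjusted p = 2.58e-06). It held 17.96, 12.99, 19.8, 9.98 and 11.1 per 10000 genome-wide junctions with DMSO, and from 0 to 12.7 with valemetostat with a median of 1.88. In valemetostat replicate 7 it was at 12.7, within the DMSO range, and 2 libraries had no junction there. The next largest falls were at chromosome 11 from 117600000 (-1.74 ± 0.48, adjusted p = 0.00226), chromosome 18 from 60900000 (-1.71 ± 0.48, adjusted p = 0.00233), chromosome 15 from 79900000 (-1.60 ± 0.47, adjusted p = 0.00329) and chromosome 12 from 114400000 (-1.53 ± 0.46, adjusted p = 0.00362), the last at the edge of Igh. All 5 kept their call whichever single library was left out, which does not remove the effect of the minimum tally on those at chromosomes 11, 14 and 18. A smaller fall at chromosome 16 from 23100000 (-1.33 ± 0.49, adjusted p = 0.0229) lost its call without DMSO replicate 1 (-1.15) or valemetostat replicate 4 or 5 (-1.15 and -1.03), and by limma trend (-1.50) and quasi-Poisson regression (-1.87). Without DMSO replicate 3, which held 18.2 per 10000 genome-wide junctions there against 1.62 to 9.80 in the other DMSO libraries, that window had too few junctions to be tested.

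The chromosome 18 window holds Cd74, which encodes the invariant chain of MHC class II. Cd74 itself (60960000 to 60979999) took 0.0490, 0.0650, 0.0661, 0.0998 and 0.0476% of genome-wide junctions in the DMSO libraries. In the valemetostat libraries it took 0% at the lowest, 0.0148% at the median and 0.0211% at the highest. The groups do not overlap, which held for 1 of the 22 loci of the off-target list (4.55%), and these shares rest on 21 junctions with DMSO and 6 with valemetostat, and the 3 valemetostat libraries without a junction there could each have held up to 0.0518 to 0.0613%. With idelalisib and valemetostat in run 2 Cd74 stood at 0.0266% ± 0.0215, and with tazemetostat in run 1 at 0.0207% ± 0.0187.

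The 100 kb windows of the Ly6e region (chromosome 15 from 74700000) and of Zfp36l1 (chromosome 12 from 81200000) fell by 1.01 ± 0.38 and 1.04 ± 0.43 on the log2 scale (limma, adjusted p = 0.0255 and 0.0443). The Ly6e region held 18.04 ± 4.41 per 10000 genome-wide junctions with DMSO and 9.59 ± 4.94 with valemetostat, in which replicate 3 had 1.94 and replicate 2 had 16.3. Zfp36l1 encodes an RNA-binding protein that promotes mRNA decay, and its window held 12.4 ± 5.37 and 6.79 ± 4.78. Both windows were higher with idelalisib and valemetostat in run 2, at 21.4 ± 5.73 and 23.1 ± 5.56. The Ly6e call ended without DMSO replicate 1, 3 or 4 (-1.001, -0.89 and -0.99). The Zfp36l1 call ended without DMSO replicate 1, 2, 3 or 4 (-1.04, -0.83, -1.03 and -1.02) or valemetostat replicate 1, 4, 5 or 8 (-1.04, -0.84, -0.78 and -1.02), and with DMSO replicates 1 and 2 as 1 sample (-1.02). With the minimum tally halved both calls ended, as did that on chromosome 16. Limma trend and quasi-Poisson regression each kept 8 of the 10 calls at 100 kb, and neither kept both of these.

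A list of 22 loci known as AID off-targets was described as a whole. It was drawn up with earlier results of these libraries known, so it is no independent evidence and its sum was given no test here. Relative to the genome-wide tally, the list came to 0.963, 1.12, 0.860, 1.34 and 0.730% in the DMSO libraries, and with valemetostat 0.447% at the lowest, 0.583% at the median and 0.837% at the highest. The Ly6e region lies on chromosome 15. Its junctions, 57 with DMSO and 48 with valemetostat, are in this sum but not in the genome-wide tally. The means were 1.003% ± 0.237 and 0.629% ± 0.162, with 320 and 310 junctions, and the groups overlap, since DMSO replicate 5 lay below valemetostat replicates 1, 2 and 6. AID-KO DMSO libraries had 0.262%. The mean was lower with valemetostat at 17 loci and higher at 5. Of the 10 loci with 20 or more junctions in the 13 libraries, all 10 had a lower mean, with ratios from 0.170 to 0.979 and a median of 0.612. Of the 12 loci with fewer, 7 had a lower mean. Over all windows tested, 79 of 142 (55.6%) at 1 Mb and 24 of 27 (88.9%) at 100 kb had a fitted change below 0. The minimum of 20 counts both groups together, and Cd74 passed it with 21 junctions from DMSO and 6 from valemetostat.

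Among those 10, the ratios were 0.435 for Bach2, a transcription factor of B cells, 0.603 for Mir17hg, the host of the miR-17-92 cluster, and 0.620 for the histone cluster of chromosome 13. They were 0.673 for Nfkbia, which encodes an inhibitor of NF-κB, 0.716 for Cd83, a surface protein of activated B cells, and 0.792 for Aff3. For Ebf1, a factor of the B lineage, the ratio was 0.979, and the value with AID-KO DMSO, 0.0618% of genome-wide junctions, was no lower than that with WT DMSO, 0.0555%. The 5 loci with a higher mean were Pim1, Tnfaip3, Il4ra with Il21r, Rhoh and Fli1, each with 19 or fewer junctions in all. Pim1, a kinase gene, held 0.0262% ± 0.0194 with valemetostat and 0.0184% ± 0.0193 with DMSO, a difference well within the spread.

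**Figure D3:**
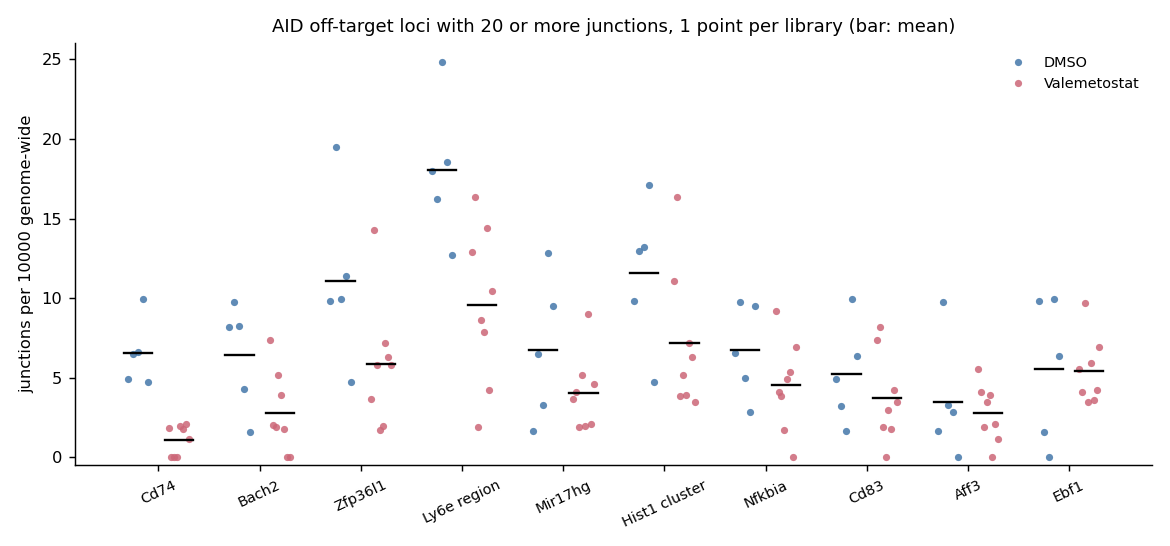
The vertical axis gives junctions per 10000 genome-wide junctions at the 10 off-target loci with 20 or more junctions, with 1 point per library, blue for WT DMSO and red for WT valemetostat, and a bar for the mean. The valemetostat mean is lower at all 10 loci, and the groups are separate only at Cd74.

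Near the bait the share of junctions did not change detectably. The bait window held 31.1% ± 3.46 of all junctions with valemetostat and 32.4% ± 1.17 with DMSO (difference -1.28 points, interval -4.93 to 2.36, exact permutation test, adjusted p = 0.554). Of these, 60.1% ± 2.59 and 60.6% ± 2.27 lay within 1 kb of the bait site (difference -0.462 points, interval -3.58 to 2.68). The side on which junctions lay did differ. Among junctions 1 kb to 1 Mb from the bait site, the lower-coordinate side took 31.2, 33.0, 31.7, 32.0 and 30.6% with DMSO. With valemetostat it took 36.8% at the lowest, 38.8% at the median and 41.5% at the highest. The mean rose from 31.7% ± 0.916 (n = 5) to 39.0% ± 1.38 (n = 8), by 7.30 points (interval 5.77 to 8.83, exact permutation test, adjusted p = 0.00389), with no overlap. In contrast to the Igh share, this value did not set WT valemetostat apart from idelalisib valemetostat in the same run, which had 38.8% ± 1.79 (difference 0.145 points, exact permutation test, adjusted p = 0.869). Tazemetostat in run 1 had 37.0% ± 1.04 and AID-KO DMSO 34.0%.

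A finer view, with bins chosen after the values were seen and therefore not tested, placed the differences on the strand that dominates each side. On the higher-coordinate side, plus-strand junctions in the first 200 bp took 14.3% ± 1.09 of the bait window with DMSO and 19.97% ± 1.53 with valemetostat, and those from 200 to 1000 bp took 21.9% ± 0.740 and 18.1% ± 0.892. On the lower-coordinate side, minus-strand junctions 1 to 5 kb away took 8.19% ± 0.815 and 10.9% ± 0.692. Nearer the bait on that side, minus-strand junctions 200 to 1000 bp away went the other way, at 6.85% ± 0.372 with DMSO and 5.46% ± 0.440 with valemetostat. In these bins the groups did not overlap, and in all other bins on either strand they did. For the plus-strand bin of the first 200 bp the idelalisib valemetostat libraries of run 2 had 16.8% and WT tazemetostat 13.8%. For the minus strand they had 11.5 and 11.1% from 1 to 5 kb, and 6.08 and 7.49% from 200 to 1000 bp.

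Farther out on chromosome 15 there were more junctions with valemetostat. Outside the bait window that chromosome held 3.58, 3.63, 3.53, 3.71 and 3.41% of all junctions with DMSO, and 3.61% at the lowest, 4.09% at the median and 4.58% at the highest with valemetostat. The mean rose from 3.57% ± 0.114 (n = 5) to 4.09% ± 0.278 (n = 8), by 0.523 points (interval 0.235 to 0.816, exact permutation test, adjusted p = 0.0117), and only valemetostat replicate 7 fell within the DMSO range. Within run 2 the idelalisib libraries had 3.84% ± 0.141, 0.253 points below WT valemetostat (exact permutation test, adjusted p = 0.124).

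The only 2 windows of 1 Mb that were higher in the fit over all windows lay there, below the bait. The window from 60000000, of which only the part outside the bait window was counted, rose by 1.21 ± 0.29 on the log2 scale (limma, adjusted p = 0.00714), from 9.97 ± 4.36 to 25.5 ± 13.3 per 10000 genome-wide junctions. Its call held whichever single library was left out but not by quasi-Poisson regression (1.24, adjusted p = 0.243). The window from 59000000 rose by 0.97 ± 0.28 (limma, adjusted p = 0.0348), from 11.9 ± 4.18 to 24.7 ± 9.96. That call ended without DMSO replicate 1, 2 or 5 (0.92, 0.77 and 0.96) or valemetostat replicate 1, 2, 3, 4 or 6 (0.95, 0.85, 0.99, 0.91 and 0.89), and with DMSO replicates 1 and 2 as 1 sample (0.84). It also ended by quasi-Poisson regression (adjusted p = 0.224), so neither rise was called in that fit. Limma trend and a halved minimum tally each called 1 window higher.

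The distances around the bait were then tabulated on both sides, after these windows were seen and without a test. From 100 kb to 3 Mb on the lower-coordinate side the DMSO libraries held 24.1, 26.9, 28.8, 32.6 and 26.1 junctions per 10000, and the valemetostat libraries 41.8 at the lowest, 55.9 at the median and 104 at the highest. Every valemetostat library was above every DMSO library, and the mean of 63.7 ± 20.6 was 2.30 times the DMSO mean of 27.7 ± 3.22. These were not repeats of a few positions, since the 494 valemetostat junctions lay at 488 different positions. Valemetostat replicate 2 had the highest value. On the higher-coordinate side over the same distance the values were 78.6 ± 16.99 and 74.2 ± 11.1, and from 20 to 100 kb on the lower side 8.24 ± 3.86 and 8.27 ± 2.74. Idelalisib valemetostat libraries had 39.0 ± 4.75 in that lower flank, idelalisib DMSO libraries 24.7 ± 4.14, WT tazemetostat 33.5 ± 5.97 and AID-KO DMSO 37.1.

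**Figure D4:**
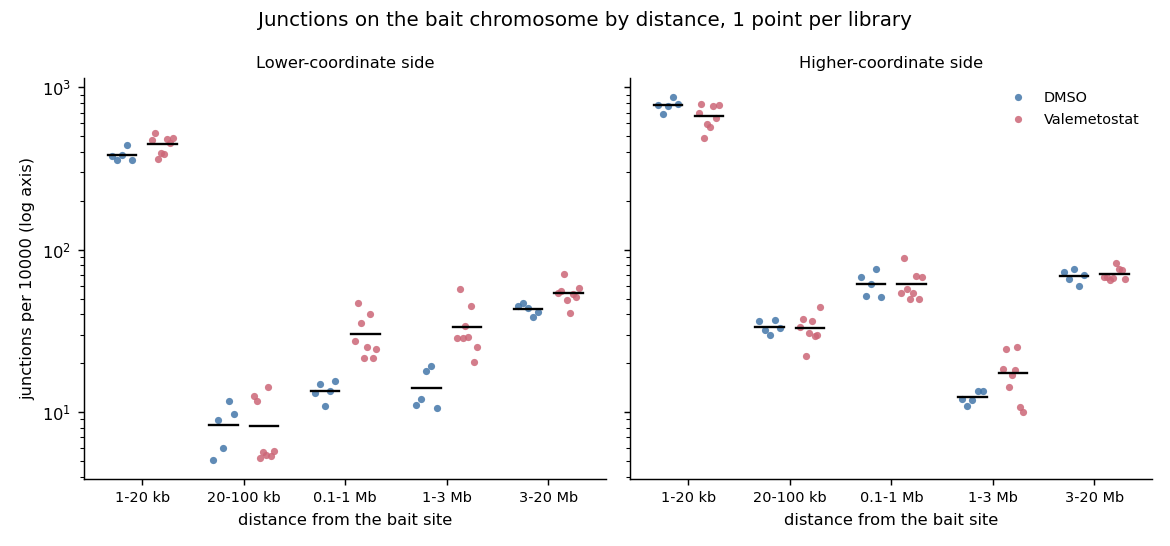
The vertical log axis gives junctions per 10000 junctions of a library and the horizontal axis the distance from the bait site, with the lower-coordinate side on the left and the higher-coordinate side on the right, 1 point per library and a bar for the mean. From 0.1 to 3 Mb on the lower side the 8 valemetostat libraries lie above the 5 DMSO libraries, and on the higher side the groups overlap at every distance.

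Across the other chromosomes the spread of junctions was close to that with DMSO. Of 19 chromosomes, 1 passed (5.26%). Chromosome 12, counted without Igh, held 6.40% ± 0.283 of genome-wide junctions with valemetostat (lowest 6.08, median 6.30, highest 6.90%) and 5.84% ± 0.110 with DMSO (lowest 5.75, highest 6.02%), a difference of 0.563 points with no overlap (exact permutation test, adjusted p = 0.0443). Idelalisib valemetostat in run 2 stood at 6.53% ± 0.493 and tazemetostat in run 1 at 5.76% ± 0.307. The call was at the edge. It ended without DMSO replicate 1, 2, 3, 4 or 5 (0.553, 0.542, 0.609, 0.569 and 0.544 points), without valemetostat replicate 1, 2 or 4 (0.585, 0.570 and 0.585), after thinning (0.417), without recurrent positions (0.571) and with DMSO replicates 1 and 2 as 1 sample (0.548). Chromosome 11 had the lowest difference, -0.632 points, and missed (exact permutation test, p = 0.00777, adjusted p = 0.0738). The genome-wide junctions as a whole took 63.4% ± 3.66 of all junctions with valemetostat and 60.5% ± 1.16 with DMSO (difference 2.84 points, interval -0.974 to 6.62, exact permutation test, adjusted p = 0.211), and the Igk and Igl light chain loci together 0.0387% ± 0.0217 and 0.0419% ± 0.0209, from 33 and 22 junctions.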

How the data were processed

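Junctions of 13 LAM-HTGTS libraries were analysed, with other libraries of the series for orientation. Per the submitters' processing notes positions refer to mm9. No source used here names the aligner or junction caller. As deposited by the authors, every library is a list in which a line is a junction, with its position, read name, strand and a score from 16 to 222 of unstated meaning, which was not used in any test. Whether positions start at 0 or 1 is not stated.

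Junctions were tallied in Python 3.11.15 (pandas 2.3.3, numpy 2.4.6) and expressed as shares of each library. Differences in mean share were tested two-sided by exact permutation of libraries, with Benjamini-Hochberg adjustment within each family of measures and a threshold of 0.05, and intervals come from inverting that test. Tallies in 1 Mb and 100 kb windows with a mean of at least 5 and 2 junctions entered a voom fit (limma 3.58.1, R 4.3.3), in which the genome-wide tally served as library size. Both tests were checked on simulated data. Limits for a count of 0 (3 counts) cover counting error only, since no molecular identifiers are stated for these PCR reads.

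The sum over the off-target list and its single loci were not tested. The comparison, loci and lists were chosen with earlier results of these data known, and bounds of loci and Igh parts were set after profiles were seen. Named were Igh and its parts, the listed loci, called windows and chromosomes, and the 5 windows of strongest AID dependence. Alternatives covered identical junctions, thinning to 7419 junctions, a logit scale, denominators, recurrent positions, locus width, other window fits and each library left out.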

Additional observations from a re-analysis of the deposited data

Results flagged for a closer look

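Among 44 sets of libraries looked at (a measure in 1 group), 3 held a library far from the rest of its group, close to the 1 in 20 that chance alone gives. In the gamma3 part of Igh, WT DMSO replicate 4 had 2.27% of Igh junctions against 3.83 to 4.12% in the other 4 DMSO libraries, and WT valemetostat replicate 2 had 6.72% against 0 to 2.63% in the other 7. Leaving out the latter brings the gamma3 difference past the threshold. WT DMSO replicate 4 was also the deepest of its group, with 11953 junctions against 9946 to 10353.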

How the results depend on the processing

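Of the alternatives named here, none turned the direction of the Igh share, the rest of the bait chromosome, the lower-coordinate side or the Igh plus strand, and these 4 kept their calls except where libraries were paired by number. Pairing valemetostat replicates 1 to 5 with DMSO replicates 1 to 5 gave -2.13, 0.617, 7.71 and 7.03 points (replicate block, exact sign-flip permutation), and with 5 pairs its smallest p is 0.0625, so no share can pass and 0 Igh parts and 0 chromosomes did. Whether the numbers pair the samples is not stated. Same-numbered libraries correlated from -0.07 to 0.122 and others from -0.188 to 0.17 over windows. Libraries of the same group also correlated weakly (median 0.0351 with valemetostat and 0.143 with DMSO), so this check cannot show whether a pairing exists. The block left 6 windows of 1 Mb and 8 of 100 kb called, without that on chromosome 11 from 117000000 (-0.92, adjusted p = 0.206). Under it the share within 1 kb of the bait turned to 0.381 points. With identical junctions counted once the 1 to 20 kb share turned to 1.02 points and the bait plus strand passed at -2.50. Taken over the junctions that lay outside the bait window, the genome-wide share passed at 2.43 points. Igh parts called fell to 0 after thinning, on a logit scale and with DMSO replicates 1 and 2 as 1 sample (added after seeing the data). Chromosomes called fell to 0 after thinning, without recurrent positions and with those replicates as 1. Windows of 1 Mb called went from 7 to 11 with all 60 libraries in 1 fit and to 4 with a doubled minimum tally, which took the 100 kb count from 10 to 6. Leaving out 1 library at a time gave 0 to 3 Igh parts, 0 to 2 chromosomes, and differences of -0.838 to 0.547 points for 1 to 20 kb, -1.25 to 0.246 within 1 kb, 0.527 to 0.751 beyond 20 kb, -0.0111 to 0.00327 for light chains, 2.13 to 3.72 for the genome-wide share and -0.707 to -0.294 for its plus strand. The causes of these changes were not tested. Depth limits the off-target loci, with 1 to 57 junctions each per group.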
